A study of Mus musculus with 6 samples.

Results

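The genes described here are those whose symbols name axonemal dynein chains (Dnahc, Dnaic, Dnali, Dnalc), tektins (Tekt), radial spoke proteins (Rsph), MORN-repeat proteins (Morn) and IQ-motif proteins (Iqc), compared between testes of Stra8-deficient and wild-type mice. The choice used symbols alone and no measured value. It gave 46 genes among the 21786 symbols listed for all 6 libraries, made up of 10 heavy chains, 2 intermediate chains, 3 light chains, 5 tektins, 6 radial spoke genes, 5 MORN genes and 15 IQ-motif genes. Poly(A) RNA was sequenced from whole testes of 3 Stra8 -/- males and 3 Stra8 +/+ males, every mouse having the C57BL/6 strain background. The Stra8 -/- males were 1 year old and their testes grossly enlarged, and the Stra8 +/+ males were 2 to 4 months old. Stra8 is the retinoic-acid-induced gene that germ cells need to begin meiosis, and per the labels the enlarged testes hold mainly cells resembling type A spermatogonia. The older mice were all Stra8 -/-, hence genotype, age and testis enlargement cannot be told apart here. Which part of Stra8 the allele lacks is not stated.

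An axoneme is the microtubule core of a motile cilium or sperm tail. Outer and inner dynein arms, built from heavy chain motors with intermediate and light chains, slide its outer doublets past each other. Tektins are filament proteins of the doublet wall, and radial spokes carry signals from the central pair of microtubules to the arms. In the mouse testis the sperm tail is assembled in spermatids, and transcription of many of its genes begins in spermatocytes. Several of the MORN and IQ genes are not axonemal: the IQ motif binds calmodulin, and Iqcb1 and Iqce act at the base of the primary cilium.

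Libraries held 6733128 to 12425689 reads in genes. Stra8 was read in each library (18.1 to 23.7 CPM, read counts relative to library size, for the Stra8 -/- testes and 17.1 to 18.7 CPM for the Stra8 +/+ testes), so its level does not check the labels. Summed over 11 round spermatid markers the level was 3.4 to 5.9 CPM in the Stra8-deficient libraries and 3549 to 3788 in the wild-type libraries, and over 9 elongating spermatid genes 7.8 to 15.4 against 30039 to 34693. All 20 of these genes were called lower, as were 11 of 11 tested pachytene spermatocyte markers. Of 11 markers of undifferentiated spermatogonia 8 were called higher and 3 lower. Of 7 Sertoli markers 6 were lower, none of 6 Leydig markers was called, and 6 of 6 macrophage markers were higher. The Stra8-deficient testes differed among themselves in somatic markers: the Leydig sum was 333, 18.4 and 2764 CPM and the Sertoli sum 213, 88.3 and 669 CPM. The spread of the Sertoli sum came from Clu (121, 31.1 and 586 CPM), and the other 6 Sertoli markers summed to 92.0, 57.3 and 83.5 CPM, against 288 to 314 CPM in wild type. In whole tissue, fewer cells of a type and less RNA per cell cannot be told apart.

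Levels are given as CPM after scaling of library sizes, in the order of libraries 1, 2 and 3 of each genotype. Changes are log2 ratios of the Stra8-deficient to the wild-type level ± an approximate standard error. A gene was called when its Benjamini-Hochberg adjusted p over all genes was under 0.05 in edgeR's quasi-likelihood test. Of the 46 genes 43 passed the low-count filter. Of these, 41 were called lower, where 36.7% of all 15018 genes tested were lower, and 1 was called higher, where 39% of all genes were. In the plot of levels by library, the 3 Stra8-deficient libraries lay below the 3 wild-type libraries for 41 of the tested genes (39.4% of all genes) and above them for 2, Dnahc11 and Iqcb1 (40.7% of all genes). The median fold change was -5.24 (the same with the genes at 0 reads set at their bound), against 0.11 for all genes tested. The fitted value was below -1, a fall of over 2-fold, for 40 of the 43 genes (32.8% of all genes), below -5, a fall of over 32-fold, for 22 of the 43 genes (8.94% of all genes), and below -8, over 256-fold, for 14 (4.41% of all genes). When edgeR tested against a 2-fold change in place of none, 38 were called lower (27.4% of all genes) and 1 higher (25.5% of all genes). Higher genes made up 51.5% of all calls with TMM scaling and 63.6% with library size alone, which moved the median of all genes to 0.73 and that of the 43 genes to -4.62. The summed level of the 46 genes was 524, 613 and 522 CPM in the Stra8-deficient testes and 14178, 14113 and 14713 CPM in the wild-type testes.

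**Figure D1:**
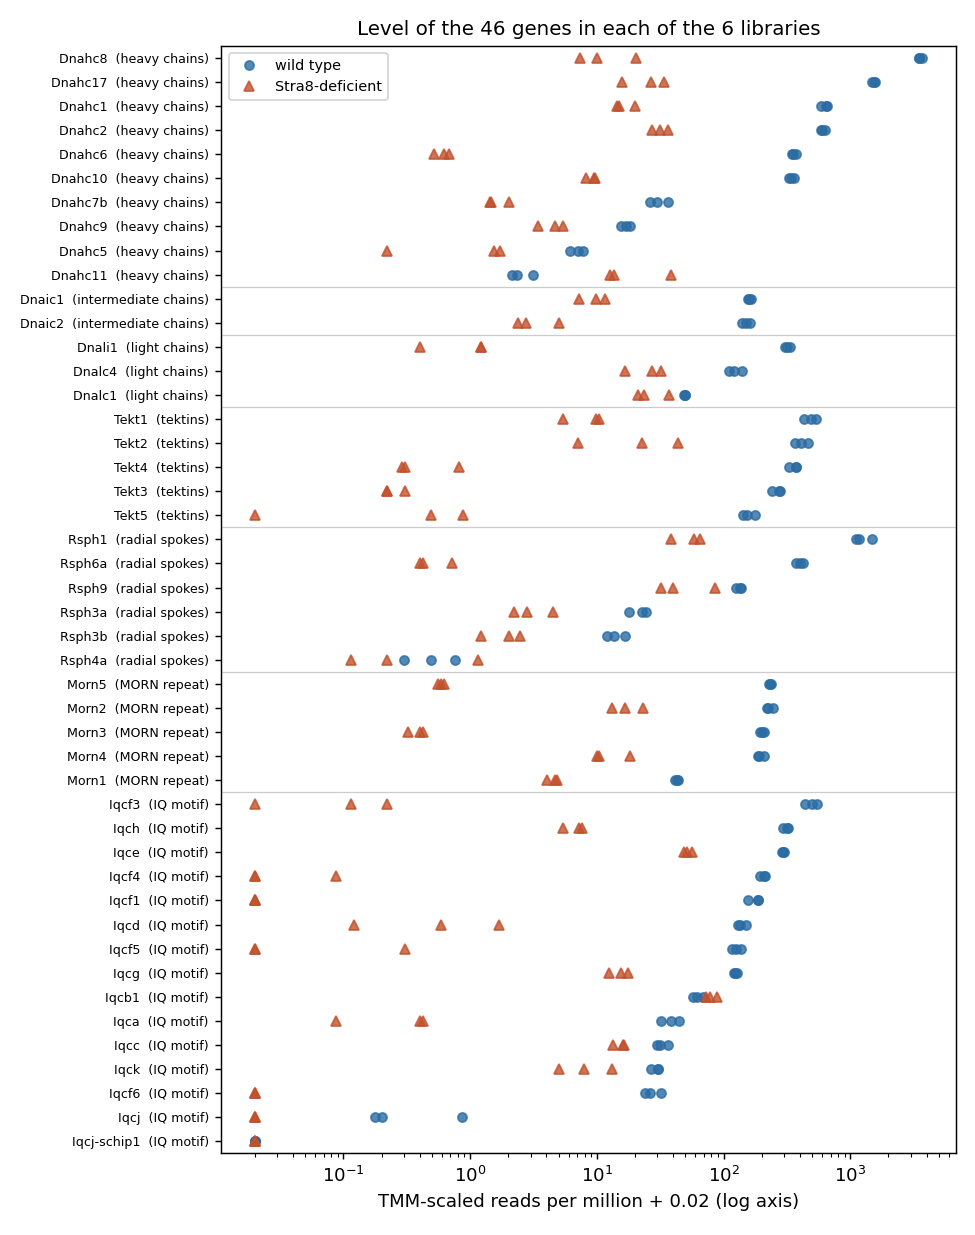
Each row is a gene, grouped by role, and each point a library; the x axis is TMM-scaled CPM plus 0.02 on a log scale, circles are the 3 wild-type and triangles the 3 Stra8-deficient testes, and genes at 0 reads sit at 0.02. For 41 of the 43 tested genes all triangles lie left of all circles, while Dnahc11 and Iqcb1 lie to the right.

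Among the dynein heavy chains, the motor subunits, the 2 most abundant in wild-type testes, Dnahc8 and Dnahc17, fell by 284-fold and 59.9-fold, while chains known mainly from multiciliated epithelia were scarce in wild-type testes. Dnahc8, an outer arm chain of sperm tails, was at 9.94, 20.3 and 7.37 CPM in the Stra8-deficient and 3688, 3454 and 3498 CPM in the wild-type testes. The groups were far apart, and the second Stra8-deficient library was the highest of its genotype. It fell by 8.15 ± 0.45 on the log2 scale (edgeR, adjusted p = 3.65e-07), leaving 0.353% of the wild-type mean. Dnahc17, the other outer arm chain of sperm, was at 26.9, 34.0 and 15.8 CPM against 1579, 1474 and 1531 CPM. Its fall was smaller, at -5.90 ± 0.32 (edgeR, adjusted p = 3.69e-07), and 1.67% of the wild-type level remained.

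The inner arm chains divided between a nearly absent gene and several with a measurable remainder. Dnahc6 had 5, 7 and 9 Stra8-deficient reads against 2269, 2617 and 1893 in wild type, and fell by 9.20 ± 0.24 on the log2 scale (edgeR, adjusted p = 2.71e-08). Dnahc1, needed for the sperm tail in mouse and human, was at 14.5, 14.9 and 19.9 CPM against 651, 589 and 645 CPM. Dnahc10 was at 9.64, 9.43 and 8.17 CPM against 328, 339 and 359 CPM. Both fell by a like amount, -5.25 ± 0.22 and -5.24 ± 0.19, with little spread between libraries. Dnahc2 kept more, at 31.3, 36.1 and 27.5 CPM against 603, 589 and 633 CPM (-4.27 ± 0.19). It kept 5.20% of its wild-type level. Dnahc7b was low in both, at 1.41 to 2.01 CPM against 26.4 to 36.6 CPM (-4.23 ± 0.29). It has near-identical relatives, so its reads are uncertain; the symbol Dnahc7a was listed for the third Stra8-deficient library alone, at 0 reads.

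Dnahc5, Dnahc9 and Dnahc11 are outer arm chains known from airway and other motile cilia. Dnahc5 had 17, 16 and 3 reads against 39, 50 and 42 and was lower (-2.64 ± 0.62; edgeR, adjusted p = 0.00372). Dnahc9 was at 4.62, 3.43 and 5.43 CPM against 15.6, 18.4 and 17.1 CPM, also lower (-1.91 ± 0.28). Dnahc11 went the other way and was the one called gene of the 46 that was higher. It was at 12.7, 38.5 and 13.7 CPM in the Stra8-deficient and 2.34, 2.12 and 3.12 CPM in the wild-type testes (3.10 ± 0.50; edgeR, adjusted p = 3.90e-04). The groups did not overlap, but the second library carried much of the rise, and without it the value was 2.35.

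Reads of Dnahc11 share ground with those of another gene. In GENCODE M21, 642 of its exon bases (4.44%) overlap exons of Cdca7l, a gene on the opposite strand that encodes a Myc-interacting nuclear protein, and the counting is not stated to use strand. Cdca7l was at 115, 178 and 146 CPM against 22.6, 23.2 and 28.1 CPM, higher by 2.57 ± 0.22. Both genes were higher in the Stra8-deficient testes and both were highest in the second of them. Whether reads of Cdca7l contribute to the count of Dnahc11 was not tested.

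Per length of exon, which allows levels of different genes to be compared, the order of the heavy chains in wild-type testes was Dnahc8 (132 ± 4.64 CPM per kilobase, SD, n = 3), Dnahc17 (94.8 ± 3.23), Dnahc1 (48.2 ± 2.60), Dnahc2 (40.6 ± 1.49), Dnahc6 (26.9 ± 0.859), Dnahc10 (21.3 ± 0.986), Dnahc7b (1.55 ± 0.260), Dnahc9 (1.07 ± 0.0860), Dnahc5 (0.445 ± 0.0520) and Dnahc11 (0.175 ± 0.0363). Neighbours in this order were further apart than their SDs, Dnahc7b and Dnahc9 being the closest pair. In Stra8-deficient testes the highest means were those of Dnahc2 (2.11 ± 0.289), Dnahc17 (1.59 ± 0.569), Dnahc11 (1.5 ± 1.01) and Dnahc1 (1.26 ± 0.232), followed by Dnahc10 (0.564 ± 0.0493) and Dnahc8 (0.467 ± 0.255). The SDs of neighbours in this order overlapped except between Dnahc1 and Dnahc10, and the place of Dnahc11 rests on the second library.

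**Figure D2:**
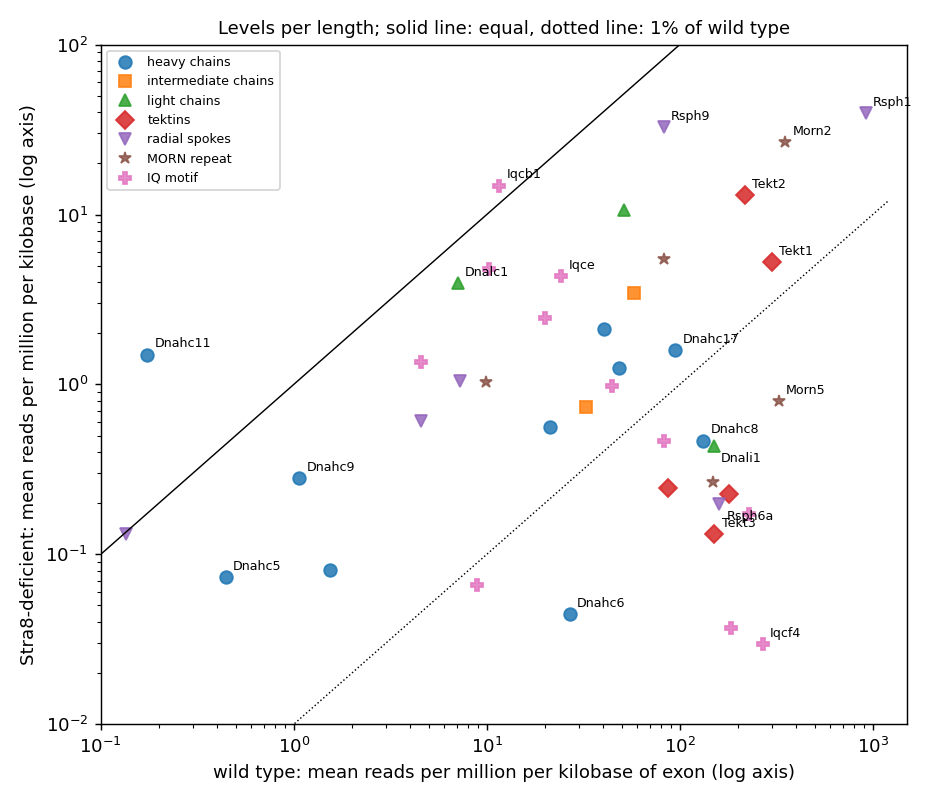
Each point is a gene with reads in both genotypes, plotted by its mean CPM per kilobase of exon in wild-type (x) and Stra8-deficient testes (y), both on log axes, with marker shape for its role; the solid line marks equal levels and the dotted line 1% of wild type. Dnahc11 and Iqcb1 lie above the solid line, Rsph1 has the highest mean in both genotypes, and Iqcf1, Iqcf6 and Iqcj are left out at 0 Stra8-deficient reads, as is Iqcj-schip1 at 0 reads in both.

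The intermediate chains that anchor the outer arm to its doublet both fell. Dnaic2 was at 5.02, 2.38 and 2.75 CPM against 139, 149 and 162 CPM (-5.48 ± 0.30; edgeR, adjusted p = 3.65e-07). Dnaic1 was at 9.84, 11.6 and 7.23 CPM against 157, 160.1 and 166 CPM (-4.08 ± 0.22). In neither gene did the groups come near each other, and 2.25% and 5.94% of the wild-type level remained.

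The light chains ranged from a gene reduced to a few reads to the smallest fall among the called genes. Dnali1, a light intermediate chain of the inner arms, had 12, 4 and 18 reads against 2018, 2174 and 1831 and fell by 8.37 ± 0.35 on the log2 scale (edgeR, adjusted p = 7.68e-08). Dnalc4 was at 32.3, 16.8 and 27.2 CPM against 111, 120.0 and 140.1 CPM (-2.28 ± 0.25). Dnalc1, the outer arm light chain now named Dnal1, was at 21.2, 37.3 and 23.7 CPM against 48.6, 49.3 and 49.5 CPM (-0.84 ± 0.24; edgeR, adjusted p = 0.0104). Its call depended on the scaling: with upper-quartile factors it was at -0.57 and with library size alone at -0.23, neither called. In GENCODE M21, 5.54% of its exon bases overlap Pnma1 on the opposite strand, which fell by 6.18 on the log2 scale; the part of Pnma1 reads was not tested.

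The tektins separated into 3 genes reduced to a few reads and 2 with a remainder. Tekt3 had 2, 3 and 3 Stra8-deficient reads against 1540, 1962 and 1500 (-10.10 ± 0.27; edgeR, adjusted p = 2.71e-08). Tekt4, which the mouse sperm tail needs for progressive movement, had 8, 3 and 4 reads against 2120, 2650 and 2023 (-9.66 ± 0.35, and -10.31 without the first Stra8-deficient library). Tekt5 had 0, 9 and 7 reads against 985, 1011 and 957 (-8.41 ± 0.50, and -9.13 without the second Stra8-deficient library). Each of these kept under 0.3% of its wild-type level. Tekt1 was at 9.84, 5.43 and 10.4 CPM against 434, 494 and 534 CPM (-5.83 ± 0.30), or 1.75% of wild type. Tekt2 was at 22.9, 44.0 and 7.03 CPM against 366, 406 and 463 CPM (-4.07 ± 0.59; edgeR, adjusted p = 3.37e-04), and 5.99% remained. The Stra8-deficient libraries of Tekt2 differed 6.26-fold from lowest to highest, the second being high and the third low, and without the second the value was -4.84. Per length the wild-type order was Tekt1 (300.4 ± 31.1 CPM per kilobase, SD, n = 3), Tekt2 (217 ± 25.7), Tekt4 (179.6 ± 12.1), Tekt3 (151 ± 11.8) and Tekt5 (87.1 ± 9.23). Tekt2 and Tekt4 overlapped within their SDs.

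All 5 tested radial spoke genes were lower. The spoke head holds Rsph1, Rsph9 and either Rsph4a, known from epithelial cilia, or Rsph6a, known from sperm. Rsph6a had 7, 4 and 6 reads against 2572, 2653 and 2306 (-9.65 ± 0.28; edgeR, adjusted p = 2.71e-08). Rsph4a had 2, 1 and 17 reads against 3, 2 and 4 and did not pass the low-count filter. Its highest count, in the third Stra8-deficient library, stood apart from the others.

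Rsph1 was the most abundant of the 46 genes per length in wild-type testes (917 ± 148 CPM per kilobase, SD, n = 3). It was at 58.6, 65.1 and 38.4 CPM against 1116, 1168 and 1491 CPM (-4.54 ± 0.27; edgeR, adjusted p = 6.28e-07). In the Stra8-deficient testes it was at 39.4 ± 10.2 CPM per kilobase, within the spread of Rsph9 at 32.6 ± 17.9. Rsph9 kept the largest share of the spoke genes that were tested, at 31.9, 39.7 and 84.9 CPM against 125, 136 and 135 CPM (-1.33 ± 0.33; edgeR, adjusted p = 0.00525). The third Stra8-deficient library was more than 2-fold above the other 2. It also had the highest Leydig marker sum and the highest macrophage marker sum (406, 353 and 1051 CPM). It did not have the highest sum of Sertoli markers other than Clu. The part of these cells in the level of Rsph9 was not tested. With library size alone Rsph9 was at -0.73 and not called. Rsph3a and Rsph3b, near-identical genes for a spoke stalk protein whose reads cannot be assigned with certainty, were at 2.21 to 4.48 and 1.21 to 2.48 CPM against 18 to 24.5 and 12.1 to 16.7 CPM. They fell by a like amount (-2.78 ± 0.33 and -2.91 ± 0.36).

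**Figure D3:**
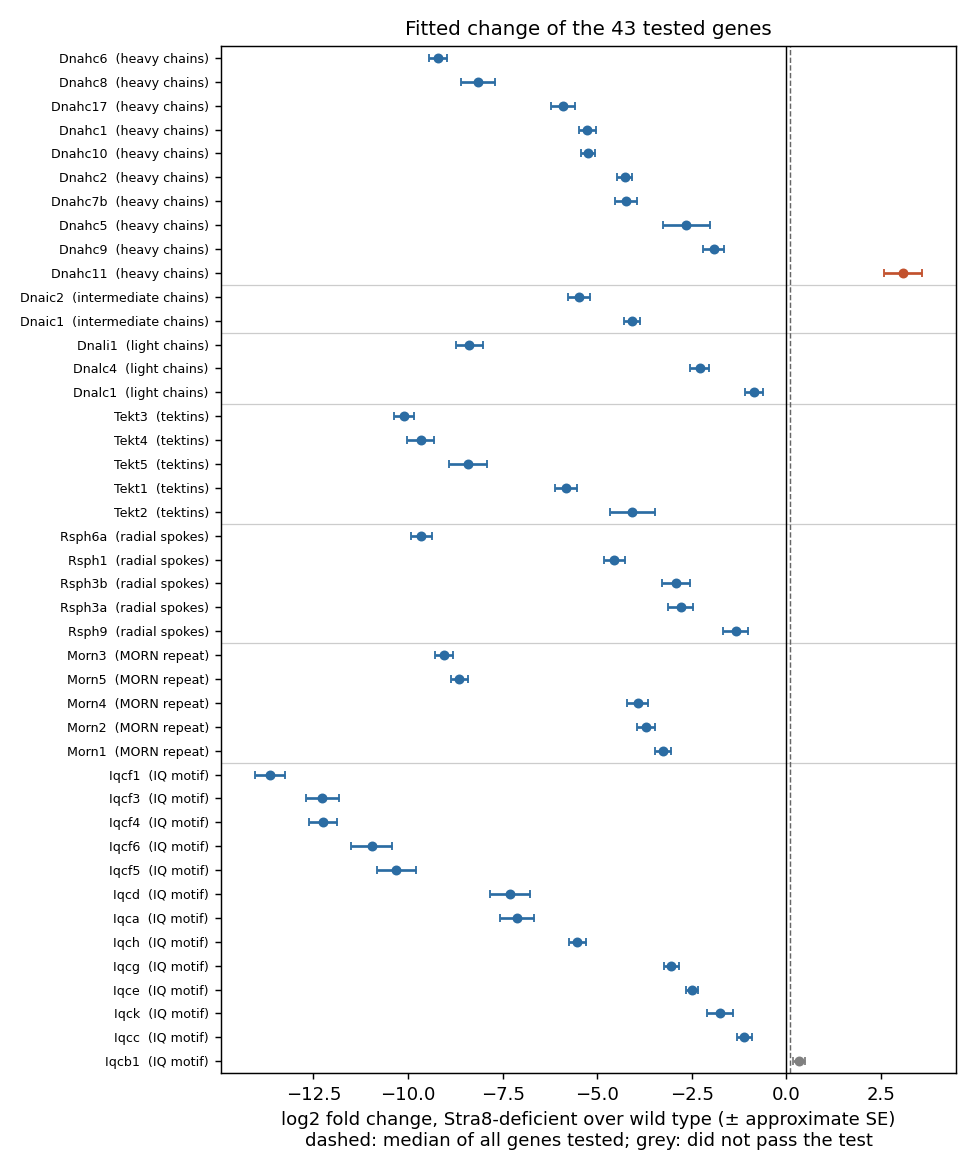
Points are fitted log2 fold changes of the 43 tested genes, Stra8-deficient over wild type, with approximate standard errors, grouped by role; the dashed line is the median of all genes tested (0.11), and grey marks the gene that did not pass the test. Dnahc11 lies right of 0 and every other coloured point left of it; the values of Iqcf1 and Iqcf6, with 0 Stra8-deficient reads, are set by the fit.

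All 5 MORN-repeat genes fell. Morn3 had 3, 4 and 6 reads against 1241, 1473 and 1096 (-9.05 ± 0.24; edgeR, adjusted p = 2.71e-08), and Morn5 had 6, 6 and 8 reads against 1494, 1622 and 1289 (-8.65 ± 0.22). The other 3 had larger remainders. Morn2 had the highest mean per length in wild type (351 ± 22.2 CPM per kilobase, SD, n = 3), but overlapped Morn5 (326 ± 5.22) within their SDs. Morn2 was at 16.7, 13.1 and 22.9 CPM against 224, 220.4 and 247 CPM (-3.71 ± 0.24). Of its exon bases in GENCODE M21, 20.6% overlap Dhx57 on the opposite strand. Dhx57 was at 36.5, 47.9 and 34.2 CPM against 27.3, 27.1 and 30.1 CPM, and the part of its reads was not tested. Morn4 was at 18.4, 10.0 and 10.3 CPM against 191, 208 and 187 CPM (-3.93 ± 0.27). Morn1 was at 4.82, 4.00 and 4.62 CPM against 43.1, 41.4 and 43.8 CPM (-3.25 ± 0.21). No MORN gene had overlapping groups, and neither did most of all genes tested (2978 of 15018 overlapped).

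The IQ-motif genes held both the deepest losses and the gene that missed the threshold. The Iqcf genes, of which Iqcf1 is known from the sperm acrosome, lie together on chromosome 9 in GRCm38. Iqcf1 had 0 reads in every Stra8-deficient library against 1206, 1319 and 852, at least 2103-fold lower when 3 reads over the genotype are taken as the limit. Iqcf6 also had 0 reads, against 205, 187 and 131, and was at least 326-fold lower. The other genes of the cluster measured here, Iqcf3, Iqcf4 and Iqcf5, had 1 to 3 reads in all. Iqcf3, with 2, 1 and 0 reads against 3165, 3840 and 2398, was 5857-fold apart between the genotypes (95% interval from counting error alone, 2003 to 28405). For Iqcf4 this ratio was 7245 (1299 to 286218), from 0, 0 and 1 reads against 1327, 1496 and 1054, and for Iqcf5 1498 (512 to 7269), from 0, 3 and 0 reads against 799, 965 and 641. Leaving out 1 library moved the fitted fold of each of these 3 genes by over 1.5 times. On the log2 scale, Iqcf3 went from -12.27 to -13.19 without Stra8-deficient library 1 and -11.57 without library 3. Iqcf4 went from -12.25 to -13.65 without library 3, and Iqcf5 from -10.31 to -13.14 without library 2 and -9.61 without library 3. With 0 Stra8-deficient reads left, the values of Iqcf4 without library 3 and of Iqcf5 without library 2 are set by the fit. The counting intervals overlap, so the genes of the cluster cannot be ranked by their loss, and all 5 were called lower.

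Iqcg, Iqcd and Iqca encode subunits of the nexin-dynein regulatory complex, the link between neighbouring doublets, and differed from one another. Iqcd had 1, 6 and 25 reads against 863, 926 and 822 (-7.31 ± 0.53; edgeR, adjusted p = 2.27e-06), and without the third Stra8-deficient library it was at -8.61. Iqca had 4, 4 and 1 reads against 204, 272 and 243 (-7.12 ± 0.45). Iqcg was at 12.4, 17.4 and 15.4 CPM against 120.2, 123 and 128 CPM, a smaller fall (-3.03 ± 0.19). In GENCODE M21, 48.1% of the exon bases of Iqcg overlap Lrch3 on the opposite strand, which was at 29.5, 40.4 and 28.7 CPM against 63.2, 61.6 and 54.3 CPM; the part of Lrch3 reads was not tested. Iqch was at 7.23, 7.62 and 5.43 CPM against 293, 321 and 314 CPM (-5.52 ± 0.22).

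The IQ genes with the smallest changes include those of the ciliary base. Iqce, which acts in Hedgehog signalling at the primary cilium, was at 48.9, 56.8 and 51.0 CPM against 294, 297 and 289 CPM (-2.49 ± 0.16; edgeR, adjusted p = 1.08e-06). Iqck was at 13.3, 5.05 and 7.90 CPM against 30.6, 27.0 and 30.4 CPM (-1.75 ± 0.34). It overlaps Gprc5b on the opposite strand over 9.44% of its exon bases, and Gprc5b was also lower, at -2.59. The more abundant 2310008H09Rik, also on the opposite strand, overlaps 6.48% of the exon bases of Iqck. That gene was at 174, 160 and 144 CPM against 294, 301 and 309 CPM (-0.92 ± 0.16). The part of the reads of either gene was not tested. Iqcc was at 16.0, 16.5 and 13.4 CPM against 36.5, 30.1 and 31.6 CPM (-1.10 ± 0.20), and was not called with library size alone (-0.48). Iqcb1, a transition zone gene mutated in a human retinal and kidney disease, was at 72.5, 87.9 and 78.6 CPM against 69.0, 61.4 and 57.6 CPM. Its groups did not overlap, but its value of 0.35 ± 0.17 missed the threshold (edgeR, adjusted p = 0.0871). Scaling by library size alone gave 0.96 and upper-quartile factors 0.62, both called higher, as was the value of 0.38 when the first Stra8-deficient library was left out. Iqcj had 0 reads against 8 and Iqcj-schip1 had 0 reads in all 6 libraries, and neither was tested. Most exon bases of Iqcj-schip1 (84.3%) are shared with Schip1, so a count of 0 does not show that it is absent.

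Spread between testes was larger in the Stra8-deficient group. Over 30 genes with at least 30 Stra8-deficient reads, the median coefficient of variation of CPM was 31.5% there and 6.66% in wild type. It was larger in the Stra8-deficient group for all 30. Taken over all genes tested, the biological coefficient of variation was 38.2% and 7.41%, so the gap is not particular to these 30 genes. No single library was highest throughout. The third library was lowest for Dnahc5, Tekt2, Dnahc8 and Dnahc17 and highest for Iqcd and Rsph9, while the second was highest for Tekt2, Dnahc11 and Dnahc8. Iqcd and Dnahc5, at the left of the plot of spread, had few reads (32 and 36 in all), so counting error contributes to their range.

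**Figure D4:**
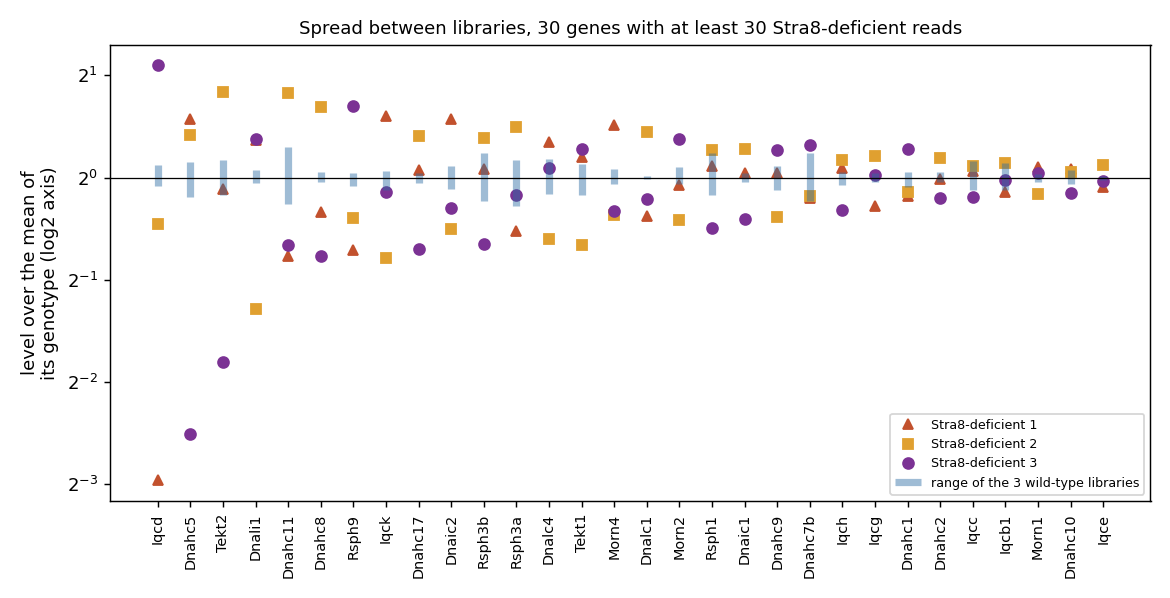
For each of the 30 genes, symbols give the level in Stra8-deficient libraries 1, 2 and 3 over the mean of that genotype on a log2 axis, and bars give the range of the 3 wild-type libraries over their mean. Genes are ordered by the ratio of the highest to the lowest Stra8-deficient library, from Iqcd on the left to Iqce on the right.

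Other genes needed to build or regulate the axoneme, taken from lists of known factors, were called lower throughout, while the cytoplasmic dynein list was mixed. Each list holds only the genes found by symbol in every library, so some known factors are not covered. All 8 dynein arm assembly factors were lower, led by Zmynd10 (-10.19 ± 0.36) and Lrrc50 (-8.43 ± 0.23), which help fold and assemble the arms before their transport; the median was -4.71. All 5 outer arm docking genes were lower (median -5.12), with Ccdc63 at -7.80 ± 0.26 and Armc4 at -7.69 ± 0.26. All 8 genes of the nexin link and of the ruler that sets the repeat of the arms were lower (median -4.66), with Tcte1 at -11.56 ± 0.35 and Fbxl13 at -9.67 ± 0.52. All 6 central pair genes were lower (median -6.85), with Spag6 at -10.15 ± 0.35 and Spag17 at -9.05 ± 0.27. For comparison, 36.7% of all genes tested were lower and their median was 0.11.

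The cytoplasmic list joins the dynein that is the cargo motor of all cells, its cofactor dynactin, and the related dynein that moves cargo inside cilia. Of its 21 tested genes, 13 were lower, 2 higher and 6 not called (median -1.07). Among the lower genes were those of the ciliary dynein, picked with their values known. They were Dync2h1 (-1.85 ± 0.28), Dync2li1 (-2.46 ± 0.20), Wdr34 (-1.58 ± 0.33) and Wdr60 (-1.63 ± 0.21). The fall was not particular to the ciliary dynein. Some genes of the cargo motor and dynactin, also picked with their values known, were lower too. Among them were Dync1h1 (-1.46 ± 0.26), Dync1i2 (-1.34 ± 0.22), Dync1i1 (-2.91 ± 0.29) and Dctn2 (-3.06 ± 0.32). The roadblock light chains went in opposite directions: Dynlrb1 rose from 20.9 ± 0.799 to 127 ± 39.4 CPM (SD, n = 3; 2.60 ± 0.24), and Dynlrb2 fell from 68.8 ± 3.07 to 0.559 ± 0.0517 CPM (SD, n = 3; -6.90 ± 0.25). Dync1li1, a light intermediate chain, was higher at 0.61 ± 0.24 (edgeR, adjusted p = 0.0391), and Dynlt1a, a light chain gene with near-identical copies, was lower at -4.12 ± 0.40. The dynactin gene Dctn4 was at 0.21 ± 0.17 (edgeR, adjusted p = 0.293).

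Markers of multiciliated epithelium, the other source of axonemal transcripts in and around the testis, were low in the Stra8-deficient testes. Of 7 tested genes of that list 6 were lower and Ccno, a regulator of centriole multiplication, was not called (0.16 ± 0.29; edgeR, adjusted p = 0.636). The list's 10 counted genes summed to 48.7 to 63.4 CPM in the Stra8-deficient and 1393 to 1593 CPM in the wild-type testes. In wild type the highest means were those of Mlf1 (538 CPM, picked with its value known), 1110017D15Rik (425 CPM) and Ccdc67 (287 CPM). Which cells these reads came from was not tested, so the sum is no measure of multiciliated cells. The largest falls were those of Ccdc67 (-10.41) and 1110017D15Rik (-9.32). Foxj1, the regulator of motile cilium genes, had 21 reads in the 3 Stra8-deficient libraries together. The 3 genes under the low-count filter differed in direction and had too few reads to compare: Sntn had 0 reads against 3 in wild type, Cdhr3 6 against 0 and Ccdc153 8 against 4. The part of such cells in the remaining levels of Dnahc2, Rsph1 or Tekt2 was not tested.

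**Figure D5:**
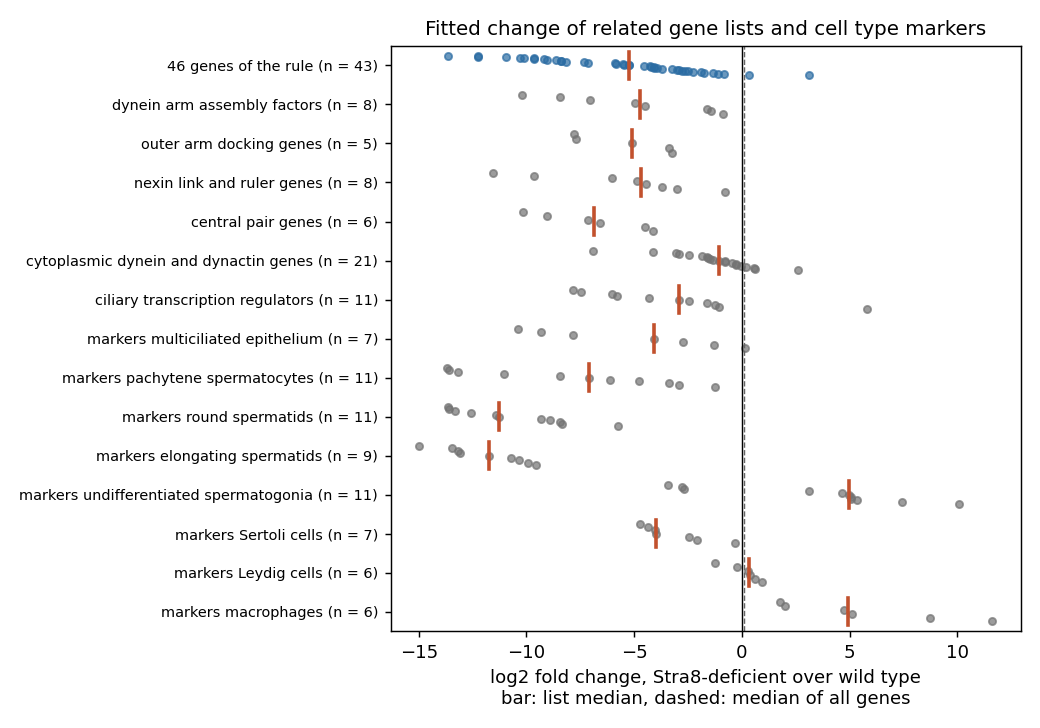
Points are fitted log2 fold changes of the tested genes in each list, with n after its name, bars are list medians and the dashed line is the median of all genes (0.11). The axonemal lists lie left of 0 as the 43 genes do, apart from Dnahc11 and Iqcb1, and the cytoplasmic dynein list spans 0.

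Transcription regulators of ciliary and spermatid genes also fell for the most part. Of 11 tested, 10 were lower and 1 was higher. Foxj1 was at 0.608 ± 0.364 CPM against 141 ± 12.2 CPM (SD, n = 3; -7.85 ± 0.34; edgeR, adjusted p = 9.59e-08). Rfx2, an X-box binding factor needed for spermatid development, was at 4.26 ± 2.47 CPM against 732 ± 49.8 CPM (SD, n = 3; -7.45 ± 0.50). Crem, the activator of spermatid genes through cAMP response elements, which was picked with its value known, was at 10.9 ± 3.75 CPM against 220 ± 30 CPM (SD, n = 3; -4.32 ± 0.28). Myb was the gene that rose (5.83 ± 0.38), from 0.368 ± 0.0557 to 21.7 ± 4.75 CPM (SD, n = 3).

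The bases before the starts of the 46 genes were searched for both kinds of site, X-box and cAMP response element. Whether Rfx2 or Crem acts on these genes was not tested. RefSeq (GRCm38.p6) gave windows of 250 bases before the start for 42 of the 46 genes. Part of an X-box, GTTGCC on either strand (GGCAAC as its reverse complement), occurred before 11 of these 42 genes (26.2%) and before 11.8% of 27025 genes with such windows. It occurred in 4 of 20 genes with a fold change below the median of the 43 tested genes and in 7 of 20 at or above it. Only these exact letters were counted. Spellings that differ by 1 letter, such as gttgct and agcaac in the window of Dnahc6, were not searched for. Both the share and the split by fold change therefore hold for the exact letters alone. The cAMP response element TGACGTCA, which reads the same on both strands, occurred before 2 of the 42 (4.76%) and 1.77% of all genes. No 2 matches overlapped. A match of this kind is a description of letters and not a binding site. Shown are the 3 genes with 2 matches to this part of an X-box in 1 window, in the first window listed for each, with matches in capitals. They are Tekt1 (chr11:72361883-72362132, minus strand, matches starting 35 and 15 bases before the start), Tekt2 (chr4:126325689-126325938, minus strand, 96 and 22 bases) and Iqcg (chr16:33056187-33056436, minus strand, 119 and 19 bases).
Tekt1: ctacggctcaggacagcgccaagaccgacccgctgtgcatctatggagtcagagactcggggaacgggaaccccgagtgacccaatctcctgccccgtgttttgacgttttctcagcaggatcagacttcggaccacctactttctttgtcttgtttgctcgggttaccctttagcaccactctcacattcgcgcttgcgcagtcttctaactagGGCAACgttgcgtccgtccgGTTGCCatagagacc
Tekt2: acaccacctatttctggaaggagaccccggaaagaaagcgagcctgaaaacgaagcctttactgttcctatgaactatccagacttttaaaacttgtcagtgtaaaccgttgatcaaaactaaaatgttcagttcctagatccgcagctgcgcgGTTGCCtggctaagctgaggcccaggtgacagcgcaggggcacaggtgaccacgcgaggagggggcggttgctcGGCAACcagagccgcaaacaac
Iqcg: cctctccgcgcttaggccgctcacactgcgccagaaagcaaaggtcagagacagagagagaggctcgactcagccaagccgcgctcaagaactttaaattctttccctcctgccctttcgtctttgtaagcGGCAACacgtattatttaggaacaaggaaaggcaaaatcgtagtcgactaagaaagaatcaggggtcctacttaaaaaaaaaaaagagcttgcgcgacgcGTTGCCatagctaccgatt

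The 2 genes with a cAMP response element had 21 (Dnahc6) and 3 (Iqcf3) reads in all over the Stra8-deficient testes. Genes without the element had as few, with 0 reads for Iqcf1 and Iqcf6, 1 for Iqcf4, 3 for Iqcf5 and 8 for Tekt3. For Dnahc6 the window, with the element in capitals, is at chr6:73221632-73221881, minus strand, and the match starts 175 bases before the start. For Iqcf3 the window is at chr9:106561627-106561876, minus strand, and the match starts 51 bases before the start. Another window listed for Iqcf3, at chr9:106544687-106544936, held no match.
Dnahc6: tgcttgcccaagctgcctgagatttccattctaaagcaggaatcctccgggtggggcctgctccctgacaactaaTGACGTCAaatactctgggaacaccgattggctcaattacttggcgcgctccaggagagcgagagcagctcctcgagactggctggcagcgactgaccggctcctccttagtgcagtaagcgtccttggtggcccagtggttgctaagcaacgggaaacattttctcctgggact
Iqcf3: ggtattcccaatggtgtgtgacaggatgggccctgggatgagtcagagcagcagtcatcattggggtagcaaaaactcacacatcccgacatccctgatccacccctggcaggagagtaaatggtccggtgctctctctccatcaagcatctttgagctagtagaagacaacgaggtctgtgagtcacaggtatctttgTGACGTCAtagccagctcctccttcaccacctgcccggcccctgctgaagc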

How the data were processed

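Raw counts of reads per gene were deposited by symbol, as whole numbers without normalisation. TopHat, HTSeq, edgeR and mm9 are named per the submitters' processing notes; their versions and settings, the annotation and any use of strand are not given in the sources read here. The authors' deposited table holds log2 ratios, log2 abundances and p-values (nominal and false discovery rate corrected) of their own comparison. HTSeq's counters of reads outside genes (20.9% to 34.5% of reads) were left out. The third Stra8-deficient file was counted on another gene list (23285 symbols against 22055), so the 21786 symbols in all 6 files were used (99.3% to 99.7% of gene reads).

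Genes were filtered with filterByExpr (15018 kept), scaled by TMM (factors 0.796 to 1.27) and fitted with edgeR 4.0.16 in R 4.3.3 (robust quasi-likelihood F test, genotype as the one term, Benjamini-Hochberg adjustment over all genes, threshold 0.05). The standard error is the log2 fold change over the square root of F; for genes with few reads it can fall below the counting error. The test was checked on simulated data. The p-values rest on the spread between 3 and 3 testes, which differed between genotypes (biological coefficient of variation 38.2% among Stra8-deficient testes, 7.41% among wild-type ones). Counting intervals are exact and, like limits from 3 counts (0.243 to 0.447 CPM before TMM scaling), describe counting error and nothing else, PCR copies being indistinguishable from separate molecules. Exon lengths and overlaps come from GENCODE M21 (GRCm38), matched by symbol or synonym for all 46 genes; that build is not the authors', so lengths are approximate.

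Genes, lists and tests were chosen with earlier results of these data known. Any of the 46 genes could be named; from each list, the 2 called genes that changed most each way (average log2 CPM 0 or more) and the most abundant gene not called were named, and other names are marked. For markers of germ cells, Sertoli cells, Leydig cells and macrophages, counts and sums alone are given. Alternatives were other scalings, no filter, DESeq2 1.42.0, a replicate term, leaving out each library and a test against a 2-fold change.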

Additional observations from a re-analysis of the deposited data

How the results depend on the processing

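Of the 43 tested genes, 39 kept their direction and their side of the threshold under all 12 alternatives in which single genes were followed, and no gene changed direction; the exceptions were Dnalc1, Iqcc, Rsph9 and Iqcb1, whose values are given with the results. The number of the 46 genes called lower was 41 in the reported fit, 40 with upper-quartile factors and 38 when scaled by library size alone. It was 41 with DESeq2, 38 in the test against a 2-fold change, and 41 without any 1 library. With every gene kept, 45 of the 46 were tested and 42 were lower, including a gene that the filter otherwise removes. The number called higher was 1, but 2 with upper-quartile factors and 2 when scaled by library size alone, where Iqcb1 joined Dnahc11, and 1 to 2 when 1 library was left out (2 without the first Stra8-deficient library). Over all genes, 3826 were higher in the test against a 2-fold change, in place of 5860, since that test asks for a larger change. A replicate block changed no call of the 43 genes (41 lower, 1 higher; 5558 lower and 5660 higher over all genes). The labels do not say that a number marks a shared litter or day. Deviations of same-numbered libraries correlated at 0.06, 0.08 and -0.04. The first and second Stra8-deficient libraries correlated best with their own numbers, and the third did not. So few libraries, with unlike spread between the genotypes, cannot show whether the numbers pair the testes. The fold changes of genes with few Stra8-deficient reads are limited by depth. Leaving out 1 library moved the fitted folds of Dnahc11, Tekt2, Tekt4, Tekt5, Iqcd, Iqcf3, Iqcf4 and Iqcf5 by over 1.5 times, as given with the results.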

Other observations

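The authors' deposited table lists 45 of the 46 genes. Of these, 42 have a corrected p under 0.05 with a negative log2 ratio in the authors' deposited table, 1 with a positive one and 2 above that threshold. The 2 are Iqcb1, at a log2 ratio of 0.35 in the authors' deposited table, and Rsph4a, at 0.15 there. The gene with a positive ratio is Dnahc11, at 3.12 in the authors' deposited table. Iqcj, with 8 wild-type reads and no Stra8-deficient read, is among the lower genes of the authors' deposited table (corrected p = 0.00580) and did not pass the low-count filter used here.

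For 10 of the 46 genes, exons overlap a counted gene on the opposite strand in GENCODE M21, in 11 pairs. In 6 pairs both genes were called in the same direction, in 3 in opposite directions, and in 2 the overlapping gene was not called. Among the 3 were Dnali1 and Iqcd. Gnl2, which shares 43 exon bases with Dnali1, was higher at 1.29 while Dnali1 was lower at -8.37. The gene 1110008J03Rik, which shares 269 exon bases with Iqcd, was higher at 1.88 while Iqcd was lower at -7.31, and it was at 32.9, 52.2 and 38.0 CPM in the 3 Stra8-deficient testes. The third was Dnaic1, lower at -4.08, with Enho, higher at 3.11.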
